A study of Rattus norvegicus with 71 samples.

Results

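Oligodendrocyte lineage genes were followed from the precursor stage to myelin formation in the PND2 rat brain. A list of 32 gene symbols was used, made of 9 precursor genes, 9 genes of committed and newly formed cells, and 14 myelin genes. Of these, 29 had a row among the 17494 genes of the count table. Expression of Lhfpl3, Sox3 and Gjc3 was not analysed here, and their promoters enter the motif counts given below.

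Poly-A RNA was sequenced from 71 wild-type Sprague-Dawley offspring of both sexes and 27 litters, with a single library for each animal. The tissue was a thin coronal slice at the level of the hippocampus with the cortex and subcortical tissue beside it, and the series' design text names frontal cortex and hypothalamus instead. Before mating, dams were injected with peptides of the autoantigens in Freund's adjuvant, and saline control dams received adjuvant and saline, so that adjuvant was common to every group. Maternal autoantibody-related autism (MARA) patterns were CRMP1+CRMP2 (8 animals, 4 litters), LDHA/B+CRMP1+STIP1 (25 animals, 9 litters), CRMP1+GDA (6 animals, 3 litters) and STIP1+NSE (8 animals, 4 litters), and 24 controls came from 7 litters. The antigens are lactate dehydrogenase A and B, collapsin response mediator proteins, stress-induced phosphoprotein, guanine deaminase and neuron-specific enolase. Sample titles form 2 series, which match the separately sequenced batches that the study's methods describe. Title series 1 held 28 animals from 7 litters, 12 of them controls and 16 exposed to LDHA/B+CRMP1+STIP1. Title series 2 held 43 animals from 20 litters, with 12 further controls, 9 animals of LDHA/B+CRMP1+STIP1 and all animals of the other patterns. Littermates share a dam, and no litter held both exposed and control animals.

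Oligodendrocytes arise from dividing precursors that carry the growth factor receptor Pdgfra and the transcription factors Olig1, Olig2 and Sox10. Precursors leave the cell cycle, pass through a short committed stage marked by the receptor Gpr17 and the enzyme Enpp6, and switch on Myrf, the transcription factor that drives myelin genes such as Mbp, Mag and Mog. In the rodent forebrain precursors are already widespread at birth and most myelin is laid down later, while caudal regions and peripheral nerves myelinate earlier.

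Among precursor genes Olig1, Olig2 and Pdgfra were abundant in these slices, and transcripts of some late myelin genes, such as Mobp and Opalin, were scarce. Levels between genes were compared as RPKM, the read count scaled to exon length and library size, over all 71 libraries. Among precursor genes, the basic helix-loop-helix factor Olig1 had a median of 73.7 RPKM (range 52.8 to 98.4). Its neighbour on chromosome 11, Olig2, had a median of 21.6 RPKM (15.03 to 28.3). Pdgfra had a median of 21.7 RPKM (16.6 to 25.9). The ranges of Olig2 and Pdgfra largely overlapped, so their order was not resolved, and Olig1 lay above both in every library. The SoxE factors Sox10 and Sox8 had medians of 10 and 8.52 RPKM. The homeodomain factor Nkx2-2 and the cadherin Pcdh15 had medians of 3.97 and 2.15 RPKM.

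Genes of the committed stage covered a wide range. Fyn, a kinase of the myelin signalling path that neurons also use, was the highest of the 29 genes, with a median of 146 RPKM (122 to 162). Tnfrsf21, a death receptor, followed with a median of 31.1 RPKM and Gpr17 with 21.9 RPKM (11.2 to 39.1). Bcas1, a marker of early myelinating cells, had a median of 10.4 RPKM. Enpp6 was near the floor of the assay at a median of 0.374 RPKM (0.0883 to 1.55).

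Levels of myelin genes ran from abundant to scarce. Sirt2, a deacetylase found in myelin, had a median of 62.0 RPKM, and Cnp, a cyclic nucleotide phosphodiesterase of myelin-forming cells, had 37.9 RPKM. Mog and Mbp, which encode a surface glycoprotein and the main cytoplasmic protein of compact myelin, had medians of 21.2 and 14.6 RPKM. The Mog row shares exon bases with another gene, as given below, so its level as a measure of myelin is uncertain. Mbp reached 36.3 RPKM in its highest library. The tight junction gene Cldn11 had a median of 7.55 RPKM and a wide range, from 0.805 to 20.8 RPKM. Mag, Ugt8 and Myrf had medians of 2.96, 3.14 and 2.19 RPKM. Scarcest were some genes of late myelin. Aspa (aspartoacylase), Ermn (ermin) and Mal (a membrane raft protein of myelin) had medians of 1.00, 0.362 and 0.170 RPKM. Mobp was listed at 0 in 28 libraries and Opalin in 53. Opalin, a late membrane protein of oligodendrocytes, reached at most 0.111 RPKM and passed no filter on low values, and it was therefore left out of every test.

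**Figure D1:**
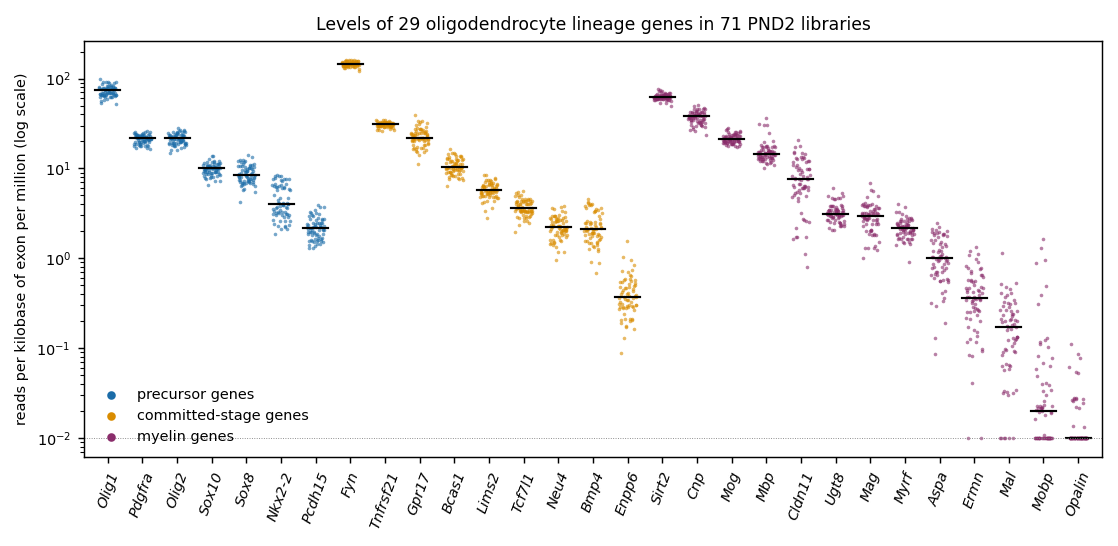
Levels of the 29 genes in RPKM (log scale, vertical axis), grouped by stage and ordered by median within a stage (horizontal axis). Each point is a library, black bars are medians over 71 libraries, and libraries under 0.01 are drawn on the dotted line at 0.01; precursor genes lie between medians of 2.15 and 73.7, while myelin genes run from 62.0 down to Opalin at 0.

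Annotation bears on how some of these values can be read. The Mbp row covers 33 exon intervals on chromosome 18 of build rn7 (75855878 to 75966404), a span that includes the upstream exons of the golli transcripts, which are not limited to myelin. Mog (chromosome 20, 1513239 to 1523473, plus strand) shares 94 exon bases with Zfp57 on the opposite strand, and the strand setting of the counting is not given in the sources used here, so reads of the pair cannot be told apart over those bases. Gpr17 (chromosome 18, 23580306 to 23581325) lies inside the span of Lims2, with 0 shared exon bases.

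Promoters are shown for 3 myelin genes that held the Myrf recognition motif and differed in behaviour, since Cnp and Mag were lower in CRMP1+CRMP2 animals at an unadjusted p under 0.05 and Cldn11 was not. The sequences are RefSeq windows of 300 bases on build GRCr8, from 250 bases before to 50 bases after the annotated start, read on the gene's strand. They lie at chr10:86011254-86011553 for Cnp (plus strand), chr1:95290995-95291294 for Mag (minus strand) and chr2:114149490-114149789 for Cldn11 (minus strand), and capitals mark the motif.
Cnp: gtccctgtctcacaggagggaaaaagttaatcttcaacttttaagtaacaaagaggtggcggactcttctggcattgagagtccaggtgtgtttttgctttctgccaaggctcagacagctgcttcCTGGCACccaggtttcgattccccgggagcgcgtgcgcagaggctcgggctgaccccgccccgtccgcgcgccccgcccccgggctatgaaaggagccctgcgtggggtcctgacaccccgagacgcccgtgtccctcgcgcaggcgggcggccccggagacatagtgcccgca
Mag: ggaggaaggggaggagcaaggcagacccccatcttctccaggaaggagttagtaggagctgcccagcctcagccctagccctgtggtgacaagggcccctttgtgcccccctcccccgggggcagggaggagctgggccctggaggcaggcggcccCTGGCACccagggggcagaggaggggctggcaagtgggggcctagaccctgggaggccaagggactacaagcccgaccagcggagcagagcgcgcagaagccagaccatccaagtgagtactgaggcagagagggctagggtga
Cldn11: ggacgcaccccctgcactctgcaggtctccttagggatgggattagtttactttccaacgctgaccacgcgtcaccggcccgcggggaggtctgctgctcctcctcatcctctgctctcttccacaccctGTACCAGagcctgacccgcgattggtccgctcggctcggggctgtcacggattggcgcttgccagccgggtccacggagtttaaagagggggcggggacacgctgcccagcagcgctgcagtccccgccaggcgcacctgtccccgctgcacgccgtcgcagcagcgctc
The motif was searched as CTGGCAC or CTGGTAC on both strands, and it stood 124, 94 and 120 bases before the start in Cnp, Mag and Cldn11. In Mal and Opalin it stood 126 and 17 bases before the start. In all, 5 of 11 myelin promoters in the table held it (45.5%), compared with 1 of 6 precursor promoters (Olig2), 1 of 8 committed-stage promoters (Enpp6) and 6.63% of 27457 rat promoters of the same length. A second motif, ACAAAG or ACAATG, which SoxE factors recognise, was in 10 of 25 promoters of the listed genes (40%) and in 28.6% of all. The E-box letters CAGCTG or CAGATG were in 11 of 25 (44%) and in 28.8% of all. These matches describe letters in a short window and are not evidence of binding.

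Library depth ran from 24880182 to 36234952 counts. Slices of the title series differed in the structures they held: the summed level of 10 choroid plexus markers ranged from 4.17 to 588 CPM (counts scaled to library size) in title series 1 and from 147 to 3464 CPM in title series 2, and the sum of 8 thalamic markers from 90.9 to 197 CPM and from 152 to 1282 CPM. Neuronal markers summed to between 7346 and 9226 CPM. The 9 measured Hox genes of a hindbrain list, which mark hindbrain and spinal cord, each had a median of 0 over all libraries. Their summed level exceeded 5 CPM in 10 libraries, 9 of them in title series 2. Among these 10 the lowest sum was 6.96 CPM, and the highest sum of the other 61 libraries was 3.76 CPM. These libraries are marked wherever a result rests on them, and leaving them out was chosen after their values were seen.

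Pooled over the patterns, MARA-AB exposure gave no change in these genes that passed the test. In the comparison of 47 exposed animals with 24 controls, 0 of 26 tested members passed FDR < 0.1 (edgeR quasi-likelihood test with the first surrogate variable), and 0 passed in DESeq2 or in limma voom with litters as random effects, against a background of 0.0321% of all genes tested. At an unadjusted p under 0.05, 3 members were lower and 0 were higher, with a background of 10.3% in either direction, 6.08% higher and 4.19% lower. Bcas1 ranged from 24.4 to 44.5 CPM in controls (median 28.95) and from 17.3 to 39.9 CPM in exposed animals (median 27.2). The ranges overlapped, and Bcas1 had a log2 fold change of -0.18 (SE = 0.066, p = 0.00835, adjusted p = 0.345, edgeR). For Neu4, a sialidase of the precursor and committed stages, the log2 fold change was -0.22 (adjusted p = 0.369, edgeR). Ugt8, which makes the myelin lipid galactosylceramide, had a log2 fold change of -0.19 (adjusted p = 0.379, edgeR). With the litter as a random effect none of the 3 remained at p under 0.05. Sox10 had the smallest p among precursor genes, with a log2 fold change of -0.09 (unadjusted p = 0.088, edgeR). The median log2 fold change was -0.032 for 7 precursor genes, -0.020 for 9 committed-stage genes and 0.00218 for 10 myelin genes, beside 0.00287 for all genes. Bulk slices cannot tell fewer cells of the lineage from less RNA per cell, here or below.

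Offspring exposed to CRMP1+CRMP2 autoantibodies had lower levels of several early lineage genes in a fit that takes animals as replicates, and none of these calls held once litters were modelled. Of 28 members tested against all 24 controls, 8 were lower at FDR < 0.1 and 0 were higher, where 11.4% of all genes passed in either direction 6.56% as lower and 4.83% as higher. By stage these were 3 of 7 precursor genes (Sox10, Olig1, Sox8), 4 of 9 committed-stage genes (Lims2, Neu4, Bcas1, Fyn) and 1 of 12 myelin genes (Cnp). With the litter as a random effect 0 passed, and the adjusted p of the 8 genes ran from 0.118 (Cnp) to 0.405 (Neu4, limma voom). The fitted level in exposed animals was between 0.767 and 0.934 of the control level. At an unadjusted p under 0.05, 11 members were lower and 1 was higher, with a background of 24.4% in either direction, 13.1% lower and 11.2% higher.

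Sox10, a factor present from precursors to mature cells of the lineage, was measured at 24.3 to 38.3 CPM in controls (median 30.6) and at 20.04 to 33.2 CPM in CRMP1+CRMP2 animals (median 25.3). The ranges overlapped, and 7 of 8 exposed animals were below the control median. Its log2 fold change was -0.30 (SE = 0.077, adjusted p = 0.0232, edgeR). Olig1 was 121 to 211 CPM in controls (median 152) and 113 to 174 CPM in exposed animals (median 140). Most exposed animals (6 of 8) lay under the control median, with a log2 change of -0.27 ± 0.078 (SE, edgeR adjusted p = 0.0397). Sox8, a SoxE factor that partly backs up Sox10, was 21.7 to 40.7 CPM in controls and 13.6 to 27.7 CPM in exposed animals. All 8 exposed animals were below the median of all controls, 29.4 CPM, but 4 of 8 were below the median of the controls of their own title series, 25.0 CPM. For Sox8 the fit gave -0.31 ± 0.11 on the log2 scale (SE, edgeR adjusted p = 0.0835).

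Olig2 and Pdgfra did not pass the adjusted threshold. Olig2, which initiates the lineage, was 39.8 to 65.3 CPM in CRMP1+CRMP2 animals and 42.03 to 70.6 CPM in controls (log2 fold change -0.19, adjusted p = 0.138, edgeR). For Pdgfra, the growth factor receptor that defines precursors, the exposed animals had 129 to 162 CPM and the controls 110 to 168 CPM. These ranges were nested and the log2 fold change was 0.02 (95% interval -0.10 to 0.15).

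Among the 4 committed-stage genes that passed, Neu4 had the largest decrease. It was 3.67 to 9.77 CPM in controls (median 6.47) and 3.57 to 6.93 CPM in CRMP1+CRMP2 animals (median 4.22), with 7 of 8 exposed animals below the control median and a log2 change of -0.38 ± 0.13 (SE, edgeR adjusted p = 0.0781). Lims2, an adaptor of integrin adhesion sites, had medians of 11.9 CPM in controls and 9.72 CPM in exposed animals. It was likewise lower in 7 of 8 animals, with a log2 fold change of -0.31 (adjusted p = 0.0631, edgeR). Bcas1 reached medians of 28.95 and 25.9 CPM, with 6 of 8 exposed animals below the control median and a log2 fold change of -0.31 (adjusted p = 0.0849, edgeR). Of these 4, Fyn had the smallest change, -0.10 on the log2 scale (adjusted p = 0.083, edgeR), on medians of 270 CPM in controls and 256 CPM in exposed animals. Gpr17 and Enpp6 had log2 fold changes of -0.17 and -0.05 that did not pass. Bmp4, a ligand that holds back oligodendrocyte maturation, was the only member with a higher value at p under 0.05, with a log2 fold change of 0.41 (adjusted p = 0.189, edgeR).

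Of the myelin genes, Cnp alone passed. Controls had 66.6 to 115 CPM (median 89.2) and CRMP1+CRMP2 animals 54.8 to 88.8 CPM (median 74.6). All 8 exposed animals were below the control median, and 6 of 8 were below that of the title series 2 controls, 83.0 CPM. The log2 change was -0.31 ± 0.083 (SE, edgeR adjusted p = 0.0296). Cnp is also transcribed in precursors, before myelin is formed. Mag, an adhesion protein of the innermost myelin wrap, had a log2 fold change of -0.40 (adjusted p = 0.132, edgeR) and Sirt2 one of -0.12 (adjusted p = 0.105, edgeR). For Mag, 4 of 8 exposed animals were below the median of all controls and 5 of 8 below that of the title series 2 controls. Mbp was 0.03 (95% interval -0.25 to 0.32), Mog 0.09 and Myrf 0.12 on the log2 scale, and none of these passed.

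**Figure D2:**
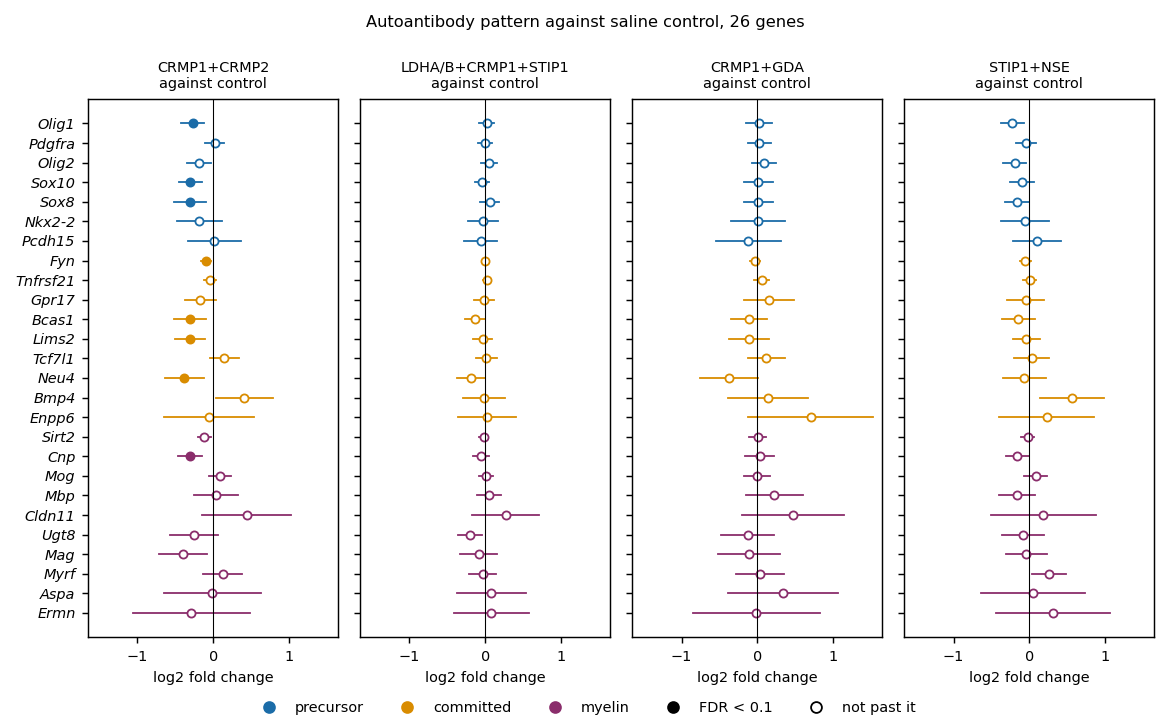
Log2 fold change of 26 members against control (horizontal axis) for each autoantibody pattern, with genes grouped by stage (vertical axis). Points are edgeR estimates, bars are 95% intervals and filled points passed FDR < 0.1, which 8 members did for CRMP1+CRMP2 and 0 for the other patterns.

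The stages were compared by their medians, with no test. Precursor genes had a median log2 fold change of -0.19 in CRMP1+CRMP2, committed-stage genes -0.10 and myelin genes 0.01, beside 0.00726 for all genes. A score per animal was taken as the mean log2 CPM of the genes of a stage. The precursor score had a median of 5.06 in CRMP1+CRMP2 animals and 5.27 in the controls of title series 2, whereas the myelin score was 4.33 and 4.35. Precursor scores ran from 4.68 to 5.40 in CRMP1+CRMP2 animals, a range that held that of the title series 2 controls, 5.02 to 5.37. Spread within the controls of a title series was 0.11 (SD) for the precursor score and 0.24 for the myelin score. Within CRMP1+CRMP2 animals the SD was 0.25 for either score.

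These calls depended on how title series and litters were treated. All CRMP1+CRMP2 animals were of title series 2, and 12 of the 24 controls were of title series 1. With title series and sex as covariates, Olig1 and Sox10 alone passed (log2 fold changes -0.29 and -0.30, adjusted p = 0.0872 and 0.0661, edgeR). In controls, Sox8, Neu4, Lims2, Cnp and Fyn were also lower in title series 2 than in title series 1, as given below. With controls of title series 2 alone, 1 of 28 members passed, namely Olig1 with a log2 fold change of -0.29 (adjusted p = 0.0998, edgeR) against a background of 1.01%. With the litter as a random effect 0 passed (background 0.063%, limma voom), and 8 members were lower at p under 0.05, where 15.2% of all genes passed in either direction. Without the 10 libraries with summed Hox genes over 5 CPM, which include CRMP1+CRMP2 replicates 4 and 5, 5 passed (Sox10, Lims2, Cnp, Bcas1 and Sox8), all lower, and the background was 3.99%. With a limit of 1 CPM, which left out 16 libraries, 6 passed (background 4.83%), namely these genes and Mag. Olig1, Neu4 and Fyn passed under neither limit, with adjusted p = 0.105, 0.216 and 0.243 (edgeR) at the limit of 5 CPM. Leaving out the litter of replicates 3 and 4 left 0, that of replicates 1 and 2 left 3, and the control litters of replicates 9 to 12, 1 and 2, and 17 to 20 left 4, 5 and 5. Leaving out a single exposed animal gave counts from 1 (without replicate 3) to 10 (without replicate 7), with 3 without replicate 2 and 4 without replicate 6. No share of all genes is given beside these leave-one-out counts or the count with title series and sex as covariates. These counts are therefore not read as particular to the members. Over 4 exposed and 4 control litters of title series 2, litter means did not overlap for Sox10, with 4.64 to 4.84 against 4.87 to 5.15 on the log2 CPM scale, and overlapped for the other 7 genes. Litter means of 3.23% of all genes tested did not overlap. The 8 genes were chosen on these same animals, so these values are a description, made after the data were seen.

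**Figure D3:**
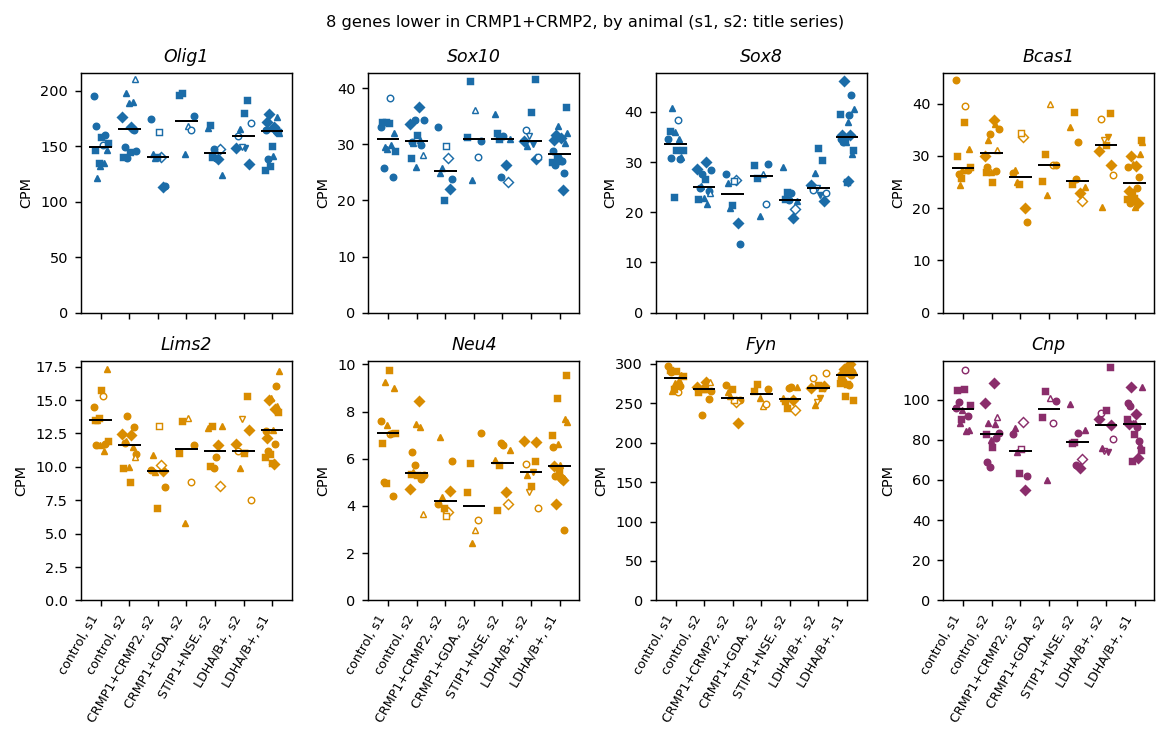
Levels in CPM (vertical axes, from 0) of the 8 members that passed FDR < 0.1 in CRMP1+CRMP2, by group and title series (horizontal axes, s1 and s2). Points are animals, marker shapes separate litters within a group, open points are libraries with summed Hox genes over 5 CPM and bars are medians; the CRMP1+CRMP2 medians for Sox10, Olig1 and Cnp are 25.3, 140 and 74.6 CPM, with ranges that overlap the controls.

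Levels of tissue markers were set beside this comparison. Ttr, the main choroid plexus transcript, differed by 2.70 on the log2 scale between CRMP1+CRMP2 and all 24 controls (edgeR, adjusted p = 0.0662). The 12 controls of title series 1 had a Ttr median of 6.09 CPM. Ttr was 169 to 3114 CPM in CRMP1+CRMP2 animals (median 1061) and 120 to 2718 CPM in title series 2 controls (median 665), so these ranges overlapped. The summed level of all 10 choroid plexus markers, Ttr among them, ranged from 208 to 3464 CPM in the exposed animals (median 1206). In the controls of title series 2 the sum ranged from 147 to 3007 CPM (median 743). All 10 of these markers had a median over 1 CPM. Against the same controls, summed markers of vessels and meninges had medians of 740 and 526 CPM, thalamic markers 758 and 940 CPM, and hypothalamic markers 27.2 and 56.8 CPM. Neuronal markers had medians of 8021 and 8206 CPM. The part of tissue content in the lower lineage genes was not tested.

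Further genes of the lineage, from lists that named more precursor, committed and myelin genes, were divided in CRMP1+CRMP2. Beside the 11.4% of all genes that passed FDR < 0.1 (6.56% lower, 4.83% higher), 9.09% of 11 further precursor genes, 7.14% of 14 further committed-stage genes and 26.9% of 26 further myelin genes passed. Of the precursor genes 1 was lower (Cspg5, a proteoglycan, -0.31) and 0 were higher, and their median log2 fold change was 0.05, beside -0.19 for the 7 listed precursor genes. Among the committed-stage genes 1 was higher (Elovl7, 0.80). Of the myelin genes 4 were lower and 3 were higher. The 5 with the smallest p were the receptor Gpr37l1 (-0.58), the sulfatide enzyme Gal3st1 (-0.43) and the tetraspanin Tspan2 (-0.29), which were lower, and transferrin Tf (1.41) and the adhesion molecule Cntn2 (0.41), which were higher, where values are log2 fold changes. Tf is also transcribed in choroid plexus.

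In STIP1+NSE, 6 of 7 listed precursor genes had values under the control level, with a median log2 fold change of -0.10, and none passed the adjusted test. Of 11 further precursor genes, 6 were lower and 5 were higher, with a median of -0.00382. Among all 12660 genes tested, 6400 were lower and the median was -0.00123. In all, 0 of 27 members tested passed FDR < 0.1 (background 0.0474%), in edgeR, DESeq2 or limma voom, and 5 had p under 0.05 (background 3.19%, with 1.55% higher and 1.64% lower). Olig1 was 124 to 169 CPM in STIP1+NSE animals (median 144) and Olig2 42.8 to 60.4 CPM (median 51.0). The log2 fold changes were -0.22 for Olig1, -0.19 for Olig2 and -0.17 for Sox8 (unadjusted p = 0.00599, 0.0201 and 0.0479, edgeR). Below the median of title series 2 controls were 6, 7 and 7 of 8 animals. In the other direction, Myrf was 11.5 to 18.1 CPM in STIP1+NSE animals (median 14.5) and 9.07 to 15.6 CPM in title series 2 controls (median 11.04). All 8 exposed animals were above that median, and the litter means of Myrf did not overlap, as was so for 0.727% of all genes tested. Myrf was singled out on these same animals, so this is a description. Bmp4 was 2.26 to 6.57 CPM, with a log2 fold change of 0.56 (unadjusted p = 0.0123, edgeR). With the litter as a random effect, Olig1 and Cnp were the members with p under 0.05 (background 1.34%, limma voom). Mbp and Mag, targets of Myrf, had log2 fold changes of -0.16 and -0.04 that did not pass.

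CRMP1+CRMP2 and STIP1+NSE shared their 24 controls, so their values are set side by side without a test of likeness. On the log2 scale, Olig1 was -0.27 and -0.22, Olig2 -0.19 and -0.19, Sox10 -0.30 and -0.10, and Pdgfra 0.02 and -0.04. Gpr17 was -0.17 and -0.05, Enpp6 -0.05 and 0.23, and Bcas1 -0.31 and -0.14. Myrf was 0.12 and 0.26, Mbp 0.03 and -0.16, Mag -0.40 and -0.04, Mog 0.09 and 0.08, and Cnp -0.31 and -0.16. Of these 12 lineage-defining members Pdgfra, Enpp6 and Mbp had values of opposite sign. Whether the patterns differed was not tested.

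LDHA/B+CRMP1+STIP1, the largest group, and CRMP1+GDA, the smallest, had no member past FDR < 0.1 in edgeR, DESeq2 or limma voom. For LDHA/B+CRMP1+STIP1 the background was 0.0157%, and at p under 0.05 (background 7.17%, with 3.95% higher and 3.22% lower) Ugt8 and Neu4 were lower by 0.20 and 0.19 on the log2 scale. Ugt8 was 7.89 to 16.1 CPM in these animals and 8.01 to 21.3 CPM in controls, with ranges that overlapped. In this fit, which takes animals as replicates, Olig1 was at 0.02 (95% interval -0.08 to 0.12), Olig2 at 0.05 (-0.05 to 0.16), Sox10 at -0.04 (-0.14 to 0.05) and Pdgfra at -0.00 (-0.10 to 0.09). The animals came from 9 exposed and 7 control litters, and intervals that allow for litters may be wider. In title series 1 alone, with sex as covariate, Ugt8 had a log2 fold change of -0.34 (unadjusted p = 0.00221, adjusted p = 0.705, edgeR). In title series 2 its litter means differed by -0.02 on the log2 scale, and 5 of 9 exposed animals lay below the control median of that series. For CRMP1+GDA 0 genes in all passed and 0 members had p under 0.05 (background 3.65%, with 1.62% higher and 2.03% lower). Its intervals were wider, as for Mbp at 0.23 (-0.15 to 0.60), Cldn11 at 0.48 (-0.20 to 1.15), Olig2 at 0.09 (-0.07 to 0.25) and Enpp6 at 0.70 (-0.12 to 1.53). For Enpp6, replicate 4 had 2.69 CPM and the other animals 0.297 to 1.02 CPM, and without the 10 libraries with summed Hox genes over 5 CPM, of which 2 are in this group, its value was -0.29 (p = 0.505, edgeR). Neu4 had the smallest p of the committed-stage genes in CRMP1+GDA (log2 fold change -0.38, unadjusted p = 0.0603, edgeR).

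Several members differed between the title series within a single group. Between the 12 controls of each series, 12 of 27 members passed FDR < 0.1, with 3 higher and 9 lower in title series 2, where the background was 41.5% of all genes (21.3% higher, 20.2% lower). The same counts held at an unadjusted p under 0.05, where the background was 43.5% (22.3% higher, 21.1% lower). In LDHA/B+CRMP1+STIP1 animals, which the controls do not enter, 8 of 27 passed, with 5 higher and 3 lower (background 41.3%, with 21.4% higher and 19.9% lower). These counts were also 5 and 3 at p under 0.05 (background 43.2%, with 22.5% higher and 20.8% lower). In controls the share of members that were lower lay above the background and the share that were higher lay below it, and in LDHA/B+CRMP1+STIP1 both lay below. Nkx2-2, Sox8, Gpr17 and Fyn passed in both comparisons, each with the same sign, as did 30.4% of all genes tested in both. The controls came from 3 and 4 litters, and many of these calls were lost once litters were modelled. With the litter as a random effect 5 remained in controls (Nkx2-2, Sox8, Gpr17, Ugt8 and Cnp, background 22.4%) and 4 in LDHA/B+CRMP1+STIP1 (Nkx2-2, Sox8, Fyn and Mbp, background 28.3%, limma voom). With counts summed per litter, Nkx2-2, Sox8, Gpr17 and Ugt8 passed in controls, and Sox8 and Cldn11 in LDHA/B+CRMP1+STIP1. No share of all genes is given for these sums, so they are not read as particular to the members.

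Nkx2-2, a homeodomain factor of precursors that is also used in ventral brain regions, had the smallest p of the members in controls. There it was 2.60 to 5.16 CPM in title series 1 and 5.25 to 11.4 CPM in title series 2, so the ranges did not overlap, as was so for 1.64% of all genes (log2 fold change 0.93, SE = 0.14, adjusted p = 1.95e-05, edgeR). In LDHA/B+CRMP1+STIP1 animals it was 2.93 to 5.79 CPM and 3.61 to 10.7 CPM, with a log2 fold change of 0.73 (adjusted p = 0.00152, edgeR). Sox8 went the other way. Controls had 23.1 to 40.7 CPM in title series 1 and 21.7 to 30.04 CPM in title series 2, and 12 of 12 title series 2 controls lay below the title series 1 median (log2 fold change -0.41, adjusted p = 0.000109, edgeR). In LDHA/B+CRMP1+STIP1 the log2 fold change of Sox8 was -0.48 (adjusted p = 0.00011, edgeR), with 9 of 9 animals below, and it was the member of smallest p in this group. Gpr17 had log2 fold changes of -0.36 and -0.25 in the respective groups, and Fyn -0.11 and -0.11.

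Olig1, Olig2, Sox10 and Pdgfra did not differ between the series by this test. Their log2 fold changes in controls were 0.13, 0.09, -0.02 and 0.02, and in LDHA/B+CRMP1+STIP1 -0.02, 0.06, 0.10 and 0.04. Among myelin genes, Ugt8 (-0.48), Ermn (-1.14), Cnp (-0.21) and Sirt2 (-0.10) were lower in title series 2 controls, and Mag (0.32) and Mal (0.97) were higher. In LDHA/B+CRMP1+STIP1 animals the myelin genes past the threshold were Mbp (0.37), Cldn11 (0.88) and Mobp (3.79), all higher. Lims2 (-0.26) and Neu4 (-0.31) were lower in title series 2 controls, and Bcas1 (0.24) was higher in LDHA/B+CRMP1+STIP1 animals of title series 2. Choroid plexus and thalamic markers differed between the series as given above, and their part in these differences was not tested.

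**Figure D4:**
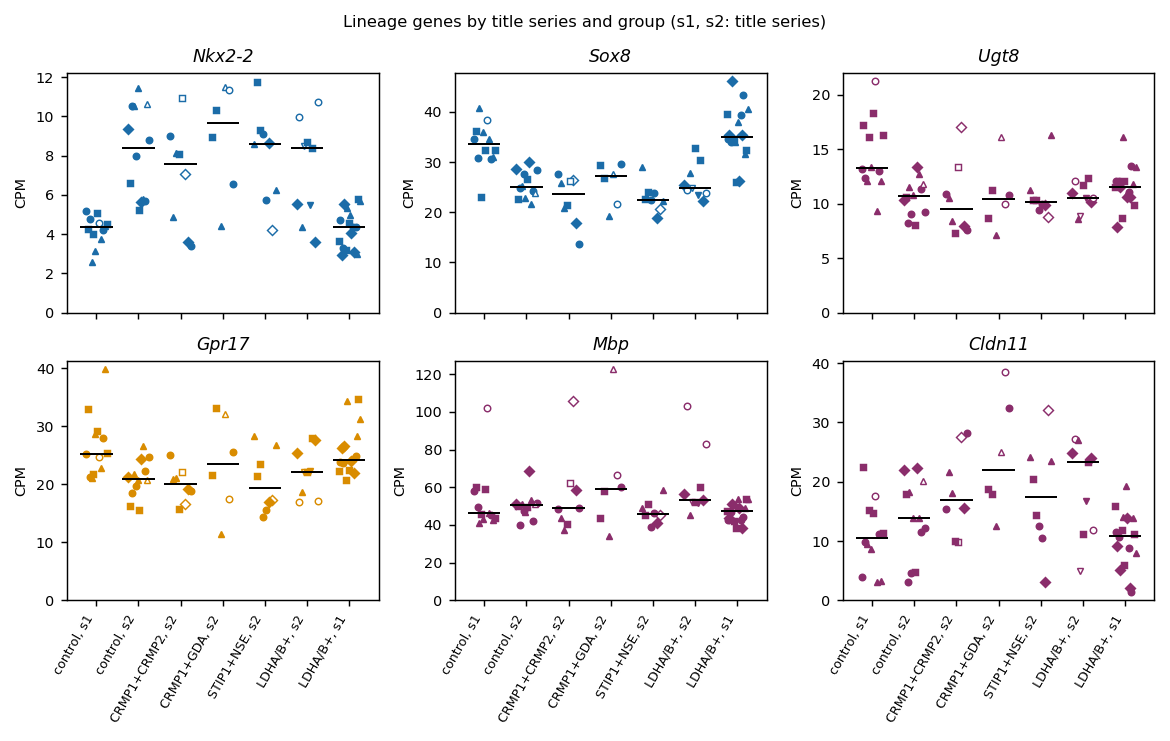
CPM (vertical axes, from 0) of 6 members by group and title series (horizontal axes, s1 and s2). Points are animals, marker shapes separate litters, open points are libraries with summed Hox genes over 5 CPM and bars are medians; Nkx2-2 medians are 4.34 and 8.38 CPM in title series 1 and 2 controls, and Sox8 medians are 33.5 and 25.0 CPM.

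The libraries with the highest levels of Mbp and Mobp also held Hox transcripts. The highest Mbp level, 122 CPM, was in CRMP1+GDA replicate 4, followed by 106 CPM in CRMP1+CRMP2 replicate 4. LDHA/B+CRMP1+STIP1 replicate 5 had 103 CPM, Control replicate 14 had 102 CPM, and LDHA/B+CRMP1+STIP1 replicate 6 had 83.0 CPM. In the same order, the summed Hox genes were at 134, 37.9, 21.6, 64.1 and 107 CPM. Mobp, a basic protein of compact myelin, was 5.63, 3.00, 3.26, 4.38 and 1.66 CPM, beside a median of 0.0677 CPM over all libraries. Mag was 17.2, 9.86, 14.3, 11.9 and 13.9 CPM, beside a median of 7.32 CPM. The other 5 libraries with summed Hox genes over 5 CPM had 45.1 to 66.2 CPM of Mbp, within the range of the remaining libraries. The origin of this signal was not tested.

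**Figure D5:**
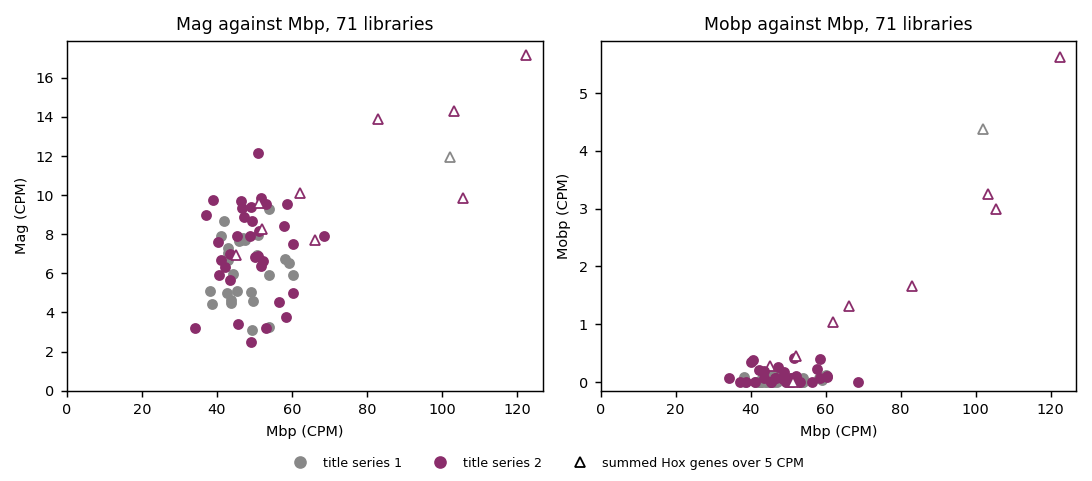
Mag (left) and Mobp (right) against Mbp in CPM on linear axes, with a point for each of 71 libraries, grey for title series 1 and purple for title series 2. Open triangles are the 10 libraries with summed Hox genes over 5 CPM; the highest Mbp libraries, from 83.0 to 122 CPM, are all open triangles and also hold the highest Mobp, from 1.66 to 5.63 CPM.

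Differences of Mbp and Mobp rested on these libraries. The effect of LDHA/B+CRMP1+STIP1 differed between the series for 0 of 28 members at FDR < 0.1 in edgeR, DESeq2 and limma voom (background 0.110%). At p under 0.05 Mobp (log2 difference 5.56, adjusted p = 0.159, edgeR), Mbp (0.48) and Ugt8 (0.34) were higher in title series 2 (background 3.05%, with 1.74% higher and 1.31% lower). Bcas1 at 0.26 and Olig1 at -0.14 had the smallest p of the committed-stage and precursor genes, and neither passed. Without the 10 libraries over 5 CPM the Mbp difference was 0.14 (p = 0.227, edgeR), and Mobp did not pass the filter on low values. Mag then had the value -0.65 (unadjusted p = 0.0101, adjusted p = 0.65, edgeR), beside -0.04 with all libraries. Between the series in LDHA/B+CRMP1+STIP1 animals, Mbp changed from 0.37 to 0.15 (adjusted p = 0.132, edgeR) without these libraries, and Mag from 0.27 to -0.25 (adjusted p = 0.437, edgeR). Cldn11 went from 0.88 to 1.05 and stayed past the threshold (adjusted p = 0.0231, edgeR), as did Nkx2-2 at 0.45, Sox8 at -0.44 and Fyn at -0.13. Gpr17 went from -0.25 to -0.14 and no longer passed (adjusted p = 0.335, edgeR). In CRMP1+GDA against control, Mbp changed from 0.23 to -0.06.

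No member passed the adjusted test between the sexes. With 35 males and 36 females, 0 of 26 members passed FDR < 0.1 in edgeR, DESeq2 and limma voom (background 0.0641%), and 1 had p under 0.05 in edgeR (background 4.69%, with 1.94% higher and 2.75% lower), namely Neu4 with a log2 fold change of -0.17 in males against females (p = 0.0477, edgeR). Mag at 0.21 and Pdgfra at -0.03 had the smallest p of the myelin and precursor genes, and neither passed.

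Members did not vary together as a single block. Across the 43 animals of title series 2, the median of pairwise Pearson's r of log2 CPM was 0.341 among myelin genes (36 pairs), 0.332 among precursor genes (21 pairs) and 0.221 between precursor and myelin genes (63 pairs). In the 28 animals of title series 1 these were 0.298, 0.104 and 0.0381. Animals share litters and genes share libraries, so these values are descriptions. The coefficient of variation over 71 libraries was 5.83% for Fyn, 11% for Pdgfra and 11.5% for Mog, and 30.2% for Mbp, 36.5% for Mag and 54.0% for Cldn11.

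Pairs were examined over litter means, with 14 relations in all. Sox10 and Cnp were paired for their small p in CRMP1+CRMP2, whose litters are among the 20 of title series 2, so their r of 0.779 there (0.661 without the 2 farthest litters) is a description. Over the 7 litters of title series 1 it did not pass (Pearson's r = 0.399, adjusted permutation p = 0.47; Spearman's rho = 0.214, adjusted permutation p = 0.71). For Cldn11 and Aspa, title series 1 gave r = 0.808 over 7 litters (adjusted permutation p = 0.059), and 0.436 without the 2 farthest litters. Over the animals of title series 2, theirs was the highest r of the 36 myelin pairs (0.802). Their values in that series are therefore a description. Over the 20 litters of title series 2, Cldn11 varied with Aspa (r = 0.81, adjusted permutation p of r = 0.00014, rho = 0.773). Without the 2 farthest litters r was 0.718. Mog followed Zfp57, the gene that overlaps it on the other strand (r = 0.823, adjusted permutation p = 0.00021; rho = 0.792), and its relation to Mbp did not pass (r = -0.213, adjusted permutation p = 0.47; rho = -0.377). In title series 1, with 7 litters, r of Mog and Zfp57 was 0.553 (adjusted permutation p = 0.35) and that of Mog and Mbp was -0.481 (adjusted permutation p = 0.4). Over animals, r of Mog and Mbp went from -0.222 to -0.601 in title series 2 and from -0.116 to -0.514 in title series 1 when libraries with summed Hox genes over 5 CPM were left out (34 and 27 animals kept).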

How the data were processed

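The authors sequenced poly-A RNA as paired-end reads, aligned them with STAR 2.5.4b to rn7 and counted reads per gene with featureCounts. The deposited table holds these raw counts, not normalized, with exon lengths. The strand and multi-mapping settings are not given in the sources used here. Each library held 24880182 to 36234952 counts (median 28439195), so that 1 CPM was 24.9 to 36.2 counts. Of counts between 1 and 9, 74.5% were even, and halved counts were tried. Columns without a sample numbered 0. Some further genes are not reported here, and the rule for leaving out libraries was therefore rewritten, with the Hox genes alone, after results under an earlier rule were known. Under that earlier rule, which left out other libraries, no member passed for CRMP1+CRMP2.

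Genes that reached 1 CPM in 8 or more samples (MARA, sex), or exceeded 1 CPM in 2 or more samples (other comparisons), were tested with edgeR 4.0.16 in R 4.3.3, after TMM scaling, with 1 surrogate variable (sva 3.50.0). P-values were adjusted by Benjamini-Hochberg over all genes, with FDR < 0.1. Alternatives used limma 3.58.1 and DESeq2 1.42.0. Animals were the replicates, and littermates share a dam. CPM and RPKM were computed from the counts and exon lengths. Promoters came from RefSeq GRCr8. The members and lists were chosen with earlier results of these data known. Values are named for 12 lineage-defining members, for each member past FDR < 0.1 and for the member of smallest p in each stage and comparison, and for at most 5 genes of each further list; members with p under 0.05 were named in addition, after their values were seen. Tested on simulated data with 200 genes changed by 1 on the log2 scale, the fit found all 200, with 25 false calls for CRMP1+CRMP2, 21 for the series in controls and 32 for MARA. Those counts were drawn for each animal without litter effects, and the planted changes were larger than those of the members called for CRMP1+CRMP2. False calls where littermates are alike were therefore not tested.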

Additional observations from a re-analysis of the deposited data

Results flagged for a closer look

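Of 87 gaps between the most extreme sample of a group and its nearest neighbour, 5 exceeded Dixon's critical value, and chance gives about 1 in 20. In CRMP1+CRMP2, replicate 3 was lowest for Fyn, at 224 CPM beside 251 CPM in the next animal (gap over range 0.587), and for Sirt2, at 102 beside 117 CPM (0.620). In CRMP1+GDA, replicate 3 was lowest for Cnp, at 59.8 beside 88.3 CPM (0.698). In STIP1+NSE, replicate 2 was highest for Ugt8, at 16.3 beside 11.3 CPM (0.598), and replicate 6 was highest for Opalin, at 0.232 beside 0.0741 CPM (0.638). None of these libraries had summed Hox genes over 5 CPM. The cause of these gaps was not tested.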

How the results depend on the processing

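The counts of members past FDR < 0.1 for MARA, LDHA/B+CRMP1+STIP1, CRMP1+GDA, STIP1+NSE and sex were 0 under every alternative run. So were those for the difference of the LDHA/B+CRMP1+STIP1 effect between the series. For CRMP1+CRMP2 the count of 8 became 0 with the litter as a random effect, 5 and 6 without libraries with summed Hox genes over 5 and over 1 CPM (both limits chosen after the data were seen), 2 with title series and sex as covariates, 1 in title series 2 alone and 0 with counts summed per litter, and it was 10 in DESeq2. Leaving out 1 litter gave 0 to 10, and leaving out 1 exposed animal, tried after the data were seen, gave 1 (without replicate 3) to 10. Between the series in controls, the count of 12 became 5 with the litter as a random effect and 4 with counts summed per litter, and leaving out 1 litter gave 7 (without control replicates 9 to 12) to 12. In LDHA/B+CRMP1+STIP1 the count of 8 became 4, 2 and, without libraries with summed Hox genes over 5 and over 1 CPM, 4 and 5, and leaving out 1 litter gave 5 (without replicates 5 and 6) to 8. The limit of 1 CPM left 1 animal in CRMP1+GDA, which was assumed to vary like the other groups, and 0 members passed there. The share of all genes is given above for some of these settings only, and the other counts are not read as particular to the members. The cause of the changes in count was not tested. No called result reversed in direction. No paired analysis was possible because the replicate numbers follow accession order only and no litter held both exposed and control animals. Libraries of about 28439195 counts limit the precision of Opalin, Mobp and Mal, which were at or near 0 in many libraries.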
